A study of Sus scrofa with 3 samples.

Results

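The transcripts described here are TCONS_00053344 on chromosome 6, TCONS_00045379 and TCONS_00045380 on chromosome 4, and TCONS_00025359 and TCONS_00025364 on chromosome 15. These 5 of 14580 assembled transcripts were selected on their measured levels in RNA precipitated from pig muscle, as the highest with an antibody to EZH2 that were also high with IgG, with 3 of them listed at 0 in total RNA and 2 above 0. Their levels and ratios are therefore given as descriptions. The lowest of them in the EZH2 precipitate was TCONS_00045380, with an EZH2_FPKM value of 3604, and the next transcript below was TCONS_00025360 with 2442. FPKM counts the fragments of a transcript relative to its length and to all mapped fragments of the library. A TCONS identifier is the number a transcript carries after Cuffcompare has compared the Cufflinks assembly with reference transcripts. The files pair no identifier with a gene name.

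The tissue was longissimus dorsi muscle, the long muscle of the back, of female Large White pigs aged 1 month. The paper's results describe the precipitated muscle as from a 1-month-old pig and lincRNAseq as made with the same sample. Its methods speak of pigs for the precipitates. The groups were 1 library from RNA precipitated with EZH2 antibody, 1 from RNA precipitated with IgG, and 1 from total RNA without immunoprecipitation, called lincRNAseq. With no replicate, differences between libraries have no error and were not tested. Above 0 were 6226 transcripts with the EZH2 antibody, 1043 with IgG and 12466 in lincRNAseq, and the number of reads behind them is unknown. Ribosomal RNA was removed for lincRNAseq, its removal is not mentioned for the precipitates, and the sequencing providers differed, so that library preparation and immunoprecipitation cannot be told apart where precipitates are set against total RNA. Muscle markers were not analysed here, since the rows carry no gene names. Within any 1 library from bulk tissue, a level does not separate the number of cells of a type from the RNA per cell.

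EZH2 is the enzyme within Polycomb repressive complex 2 and methylates a lysine of histone H3, a mark of silenced chromatin, and the complex is known to associate with many RNAs. In RNA immunoprecipitation sequencing (RIP-Seq), an antibody pulls its protein out of a tissue lysate and the RNA that comes along is sequenced. A precipitate made with IgG, an antibody without a chosen target, shows which RNAs come along regardless.

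For TCONS_00025364 and TCONS_00045380, primers for PCR were available, and they are shown because they bound the stretch by which each RNA is recognised in such an assay. They are written 5′ to 3′ in lower case, with no part marked.
TCONS_00025364 forward: ctccccactgtcttgcttca
TCONS_00025364 reverse: gacccagtgaccttggagtg
TCONS_00045380 forward: accccgaaaacagacgagc
TCONS_00045380 reverse: cggacaaccagctatcacca
The primers are 19 to 20 nt long with a GC content of 55.0% to 60.0%. None of them has an exact match, on either strand, in the full-length sequence of TCONS_00036665, the lincRNA that the study followed up. No genome sequence was used, so the primers were not placed on a chromosome. Whether they, or the reads counted for the transcripts, also match other places in the genome, ribosomal RNA genes and the mitochondrial genome included, was not tested, and the levels and chromosomes given here rest on the deposited assembly.

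TCONS_00053344 had the highest FPKM of the listed transcripts in both precipitates, with an EZH2_FPKM value of 37498 and an IgG_FPKM value of 9387. It was listed at 0 in lincRNAseq. TCONS_00045379 followed with 11954 in the EZH2 precipitate, had 1882 in the IgG precipitate, and was also listed at 0 in lincRNAseq. TCONS_00025359 had an EZH2_FPKM value of 5242 and an IgG_FPKM value of 2658, and was the third of the transcripts listed at 0. The order of these RNAs thus differed between the precipitates, since TCONS_00045379 was second with the EZH2 antibody and TCONS_00025359 was second with IgG.

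The remaining pair was above 0 in every library. TCONS_00025364 had 4905 FPKM in the EZH2 precipitate, 1086 in the IgG precipitate and 242.2 in lincRNAseq. TCONS_00045380 had 3604, 472.1 and 234.2 FPKM in the same order of libraries. All 5 transcripts were higher with the EZH2 antibody than with IgG in FPKM as deposited, but 3 of them were lower when the libraries were rescaled to equal sums. Of all 815 transcripts above 0 in both precipitates, 55.0% were lower with the EZH2 antibody as deposited and 90.1% after rescaling to the sum over all transcripts. Most of the 6226 transcripts above 0 with the EZH2 antibody were at 0 with IgG and are not among the 815. Percentages over the 815 therefore do not describe all precipitated transcripts. For the last pair, the lincRNAseq value was the lowest of the 3 libraries. In lincRNAseq, TCONS_00025364 ranked 79 and TCONS_00045380 ranked 82 of 14580 transcripts. In the IgG precipitate TCONS_00045380 ranked 9, behind 4 transcripts outside the set, whereas the other members of the set ranked 1 to 4.

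**Figure D1:**
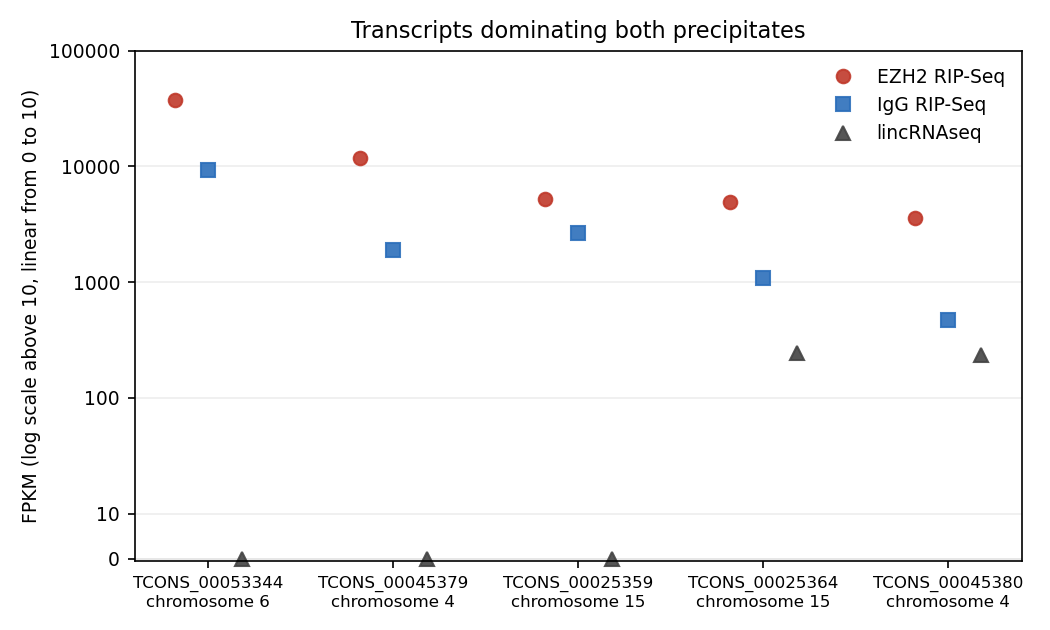
FPKM of the 5 dominant transcripts in the EZH2 precipitate, the IgG precipitate and lincRNAseq, 1 library each (vertical axis linear from 0 to 10 and logarithmic above). As deposited, the EZH2 point lies above the IgG point for all 5, which turns for 3 of them after rescaling to equal sums, and the lincRNAseq point lies at 0 for TCONS_00053344, TCONS_00045379 and TCONS_00025359.

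As a share of the summed FPKM of all 14580 transcripts, the 5 transcripts held 36.0% of the EZH2 precipitate, 40.0% of the IgG precipitate and 0.202% of lincRNAseq. The last value comes from TCONS_00025364 and TCONS_00045380 alone, and would be too low if a 0 of the other 3 were a failed estimate. TCONS_00053344 alone held 21.3% in the EZH2 precipitate and 24.2% in the IgG precipitate. Without it, the other members of the set held 18.6% and 20.8% of what was left. TCONS_00045379 held 6.80% in the EZH2 precipitate and 4.86% in the IgG precipitate. TCONS_00025359 went the other way, with 2.98% in the EZH2 precipitate and 6.86% in the IgG precipitate. The share of TCONS_00025364 was 2.79% in the EZH2 precipitate and 2.80% in the IgG precipitate, and that of TCONS_00045380 was 2.05% and 1.22%. So by share the chromosome 4 pair was higher with the EZH2 antibody, TCONS_00053344 and TCONS_00025359 were higher with IgG, and TCONS_00025364 was about level. A share of FPKM is per length of transcript and is not a share of reads. No annotated genes are among the 14580 transcripts, so these are shares of the listed transcripts and not of all RNA in a library.

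In all 3 libraries, the summed FPKM of the listed transcripts was concentrated in few of them. The 4 highest were the same in both precipitates, in another order. The sum of FPKM reached 50% with the 30 highest transcripts in the EZH2 precipitate, the 11 highest in the IgG precipitate and the 4 highest in lincRNAseq. The highest in lincRNAseq was TCONS_00071881 on an unplaced scaffold, GL894823.1, with 67573 FPKM, or 28.6% of that library's sum. It was also number 8 in the EZH2 precipitate with 1892 FPKM and had 230.7 FPKM with IgG. Of the summed FPKM of the listed transcripts, it was thus a smaller part in both precipitates than in lincRNAseq. TCONS_00025364, at rank 79, was the highest of the 5 dominant transcripts in lincRNAseq.

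The comparison of the precipitates asks whether the EZH2 antibody brought down more than IgG. The measure was log2[(EZH2_FPKM + 2)/(IgG_FPKM + 2)], with a threshold of 1. In the methods, this ratio and threshold follow a filter on lincRNA_FPKM above 1, EZH2_FPKM above 0 and low coding potential. That filter was not applied here, and the 3 transcripts listed at 0 in lincRNAseq do not pass it. The ratio was 2.93 for TCONS_00045380, 2.67 for TCONS_00045379, 2.17 for TCONS_00025364, 1.998 for TCONS_00053344 and 0.98 for TCONS_00025359. Thus 4 of the 5 were past the threshold and TCONS_00025359 was just short of it. Among all 815 transcripts above 0 in both precipitates, 167 were past it, which is 20.5%. Because the set was chosen by its EZH2_FPKM values, which are the numerator of this ratio, nothing is read from the higher count in the set. At a threshold of 2, 3 of the 5 passed, against 50 of the 815, or 6.13%, and TCONS_00053344 lay just below it.

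Outside the set, the ratio was higher among transcripts chosen for a high EZH2_FPKM, its numerator. Leaving out the 5, the median log2 ratio was -0.11 over 810 transcripts above 0 in both precipitates, 1.59 over the 63 of at least 100 EZH2_FPKM and 1.66 over the 10 of at least 1000. In the last of these groups, 8 of 10 were past the threshold. Choosing by IgG_FPKM in place of EZH2_FPKM gave lower values without a steady rise, with a median of -0.46 over 277 transcripts of at least 10 IgG_FPKM, 0.59 over 35 transcripts of at least 100 and 1.04 over 11 of at least 300. The ratios of the dominant transcripts, from 0.98 to 2.93, lay within the range of 0.46 to 4.11 of the other transcripts of at least 1000 EZH2_FPKM.

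**Figure D2:**
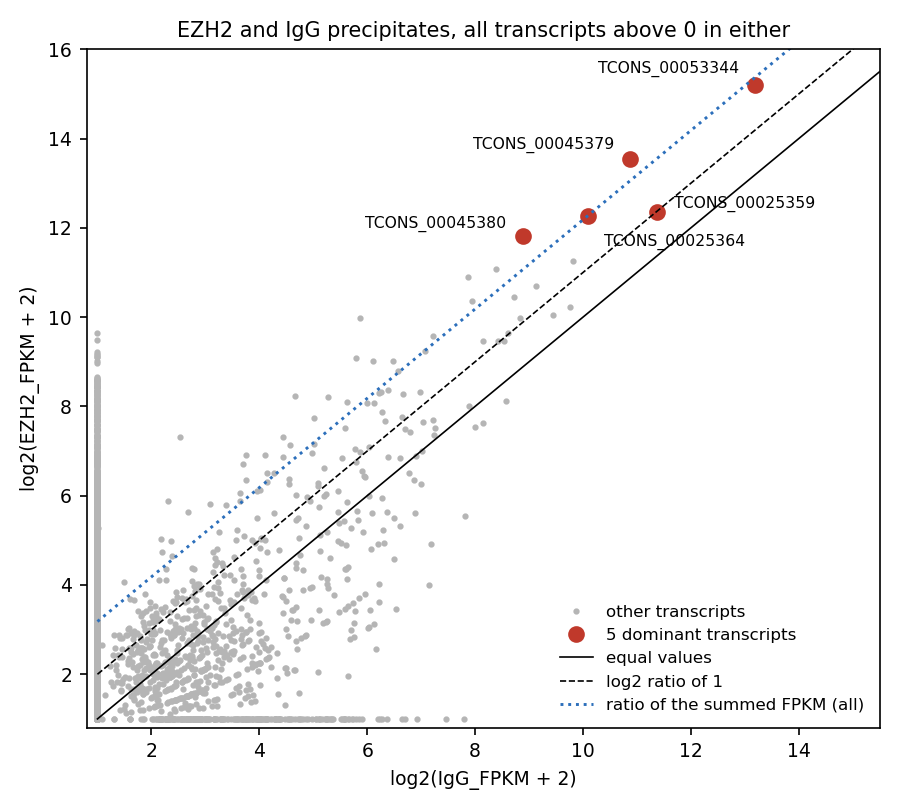
log2(FPKM + 2) in the EZH2 precipitate (vertical) against the IgG precipitate (horizontal) for all transcripts above 0 in either, 1 library each, with the 5 dominant transcripts in red. As deposited, the 5 points lie at the upper right end above the line of equal values, and on both sides of the dotted line, which marks the ratio of the summed FPKM of the libraries, a 4.54-fold difference.

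How the libraries are scaled decided the sign of this comparison for part of the set. The FPKM values summed to 175687 in the EZH2 precipitate and 38727 in the IgG precipitate, a ratio of 4.54. The sum over the 5 dominant transcripts was 4.08 times as high with the EZH2 antibody, and the sum over all other transcripts 4.84 times as high. When each library was brought to the same sum over the other transcripts, the log2 ratio was 0.66 for TCONS_00045380, 0.39 for TCONS_00045379, -0.10 for TCONS_00025364, -0.28 for TCONS_00053344 and -1.30 for TCONS_00025359. Under this scaling 0 of the 5 were past the threshold, against 2.21% of the 815 transcripts, and 3 were lower with the EZH2 antibody than with IgG, against 90.9% of the 815. With the sum over all transcripts in its place, 0 of the 5 and 2.33% of the 815 were past the threshold. Centring on the median ratio of the 815 transcripts moved the values the other way, by 0.11, and then 5 of 5 passed, against 22.6% of the 815. A change of scale moves all highly abundant transcripts by nearly the same amount, so these counts describe the scaling, and nothing about the set is read from them. Which scaling is closer to the amounts of RNA in the precipitates was not tested, and the files hold no spiked-in RNA or annotated genes to scale by.

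**Figure D3:**
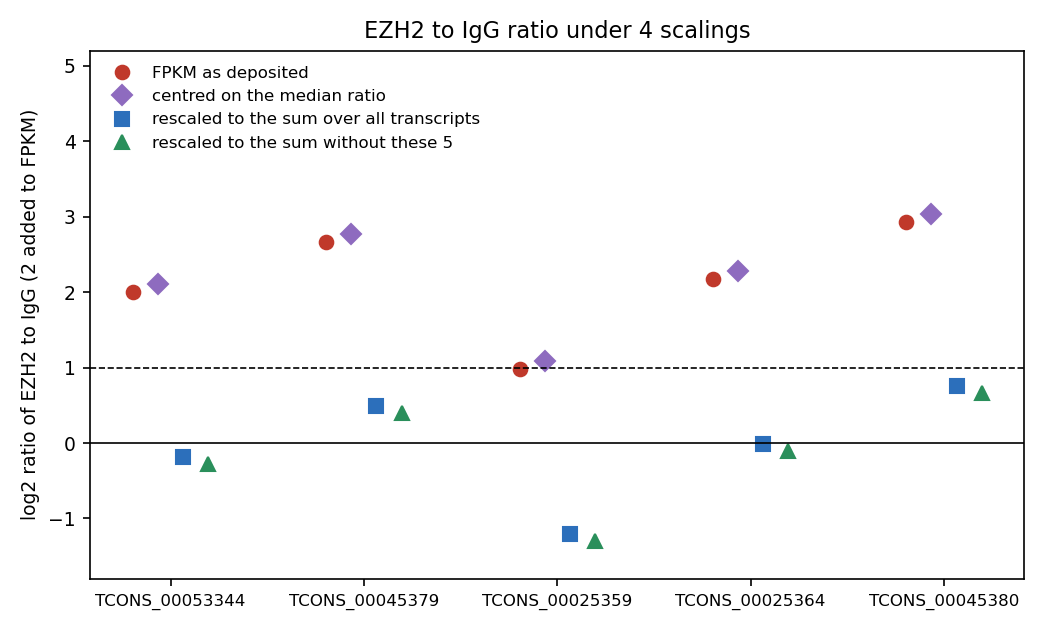
log2 ratio of EZH2 to IgG for the 5 dominant transcripts under 4 scalings of the libraries, 1 library each, with lines at 0 and at the threshold of 1. As deposited or centred, the ratios lie between 0.98 and 3.04, and rescaled to equal sums they lie between -1.30 and 0.75, in the same order of transcripts.

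Differences within the set do not depend on the scaling. The EZH2 to IgG ratio of FPKM was highest for TCONS_00045380, at 7.63-fold, and lowest for TCONS_00025359, at 1.97-fold, so that the former was 3.87 times the latter under any scaling of whole libraries. Between these, TCONS_00045379 had a ratio of 6.35, TCONS_00025364 of 4.52 and TCONS_00053344 of 3.99. Within the set, the chromosome 4 pair thus had the highest ratios of EZH2 to IgG. Of the next 5 transcripts by EZH2_FPKM, TCONS_00071881 had a ratio of 8.20 and TCONS_00053345, on chromosome 6, of 6.49. The rest of those lay from 2.73 to 3.35. Without replicates it was not tested whether neighbours in this order differ. TCONS_00036665 had 317.5 FPKM in the EZH2 precipitate, 74.3 in the IgG precipitate and 43.3 in lincRNAseq. Its EZH2 to IgG ratio of 4.27 fell between those of TCONS_00053344 and TCONS_00025364, at far lower levels in both precipitates.

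Against total RNA, a ratio can be given only for the transcripts above 0 in lincRNAseq. The log2 ratio to lincRNAseq, with 2 added, was 4.33 for TCONS_00025364 in the EZH2 precipitate and 2.16 in the IgG precipitate. For TCONS_00045380 it was 3.93 in the EZH2 precipitate and 1.01 in the IgG precipitate. Both precipitates therefore held more of this pair than total RNA did, IgG included, by FPKM. Over all transcripts above 0 in both libraries, 41.4% of 5523 had a log2 ratio of EZH2 to lincRNAseq of at least 1, and 60.6% of 938 had such a ratio of IgG to lincRNAseq. These comparisons share the lincRNAseq library, and since the choice of the 5 used all 3 libraries, nothing is read from the percentages. TCONS_00053344, TCONS_00045379 and TCONS_00025359 get no fold change, because an exact 0 in a file without counts can be a failed estimate as well as absence. Which of these a 0 stands for was not tested.

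The dominant transcripts did not stand alone in the numbering. On chromosome 15, 8 transcripts with consecutive numbers, from TCONS_00025357 to TCONS_00025364, are in the files. The members of this series between the dominant ones were TCONS_00025360 with 2442 FPKM in the EZH2 precipitate and 893.1 in IgG, TCONS_00025361 with 702.2 and 279.5, TCONS_00025362 with 1671 and 559.6, and TCONS_00025363 with 1195 and 867.2. Before them, TCONS_00025358 had 708.8 FPKM in the EZH2 precipitate and 342.8 in IgG. Every transcript from TCONS_00025358 to TCONS_00025364 was thus above 100 FPKM in both precipitates. TCONS_00025357 was the exception, with 0 in the EZH2 precipitate and 174.4 FPKM in IgG.

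Within the chromosome 15 run the EZH2 to IgG ratio was not uniform. The log2 ratio was lowest for TCONS_00025363, at 0.46, and highest for TCONS_00025364, the next number, at 2.17. The others lay from 0.98 to 1.57. The run of 7 transcripts made up 9.60% of the EZH2 sum and 17.3% of the IgG sum, and its total was 2.52 times as high in the EZH2 precipitate. With TCONS_00025357, the whole chromosome 15 group of dominant transcripts and neighbours held 9.60% and 17.7%, a ratio of 2.46. The corresponding 3 transcripts on chromosome 4 held 8.98% with the EZH2 antibody and 6.08% with IgG, a ratio of 6.70, and the 2 on chromosome 6 held 22.6% and 25.1%, a ratio of 4.08.

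On chromosome 6, the transcript with the next number, TCONS_00053345, was number 7 in the EZH2 precipitate with 2170 FPKM, and had 334.3 FPKM with IgG. TCONS_00053344 was 17.3 times as high as this neighbour in the EZH2 precipitate and 28.1 times as high in IgG. On chromosome 4, TCONS_00045376 had 222.0 FPKM in the EZH2 precipitate and 0 in IgG. It was the only neighbour within 10 numbers listed at 0 in IgG. Together, the 5 dominant transcripts and their 8 neighbours made up 41.2% of the EZH2 sum, 48.9% of the IgG sum and 0.202% of the lincRNAseq sum, the last again from the 2 transcripts above 0 there. A difference of numbers is not a distance in bases, and positions were not used here.

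**Figure D4:**
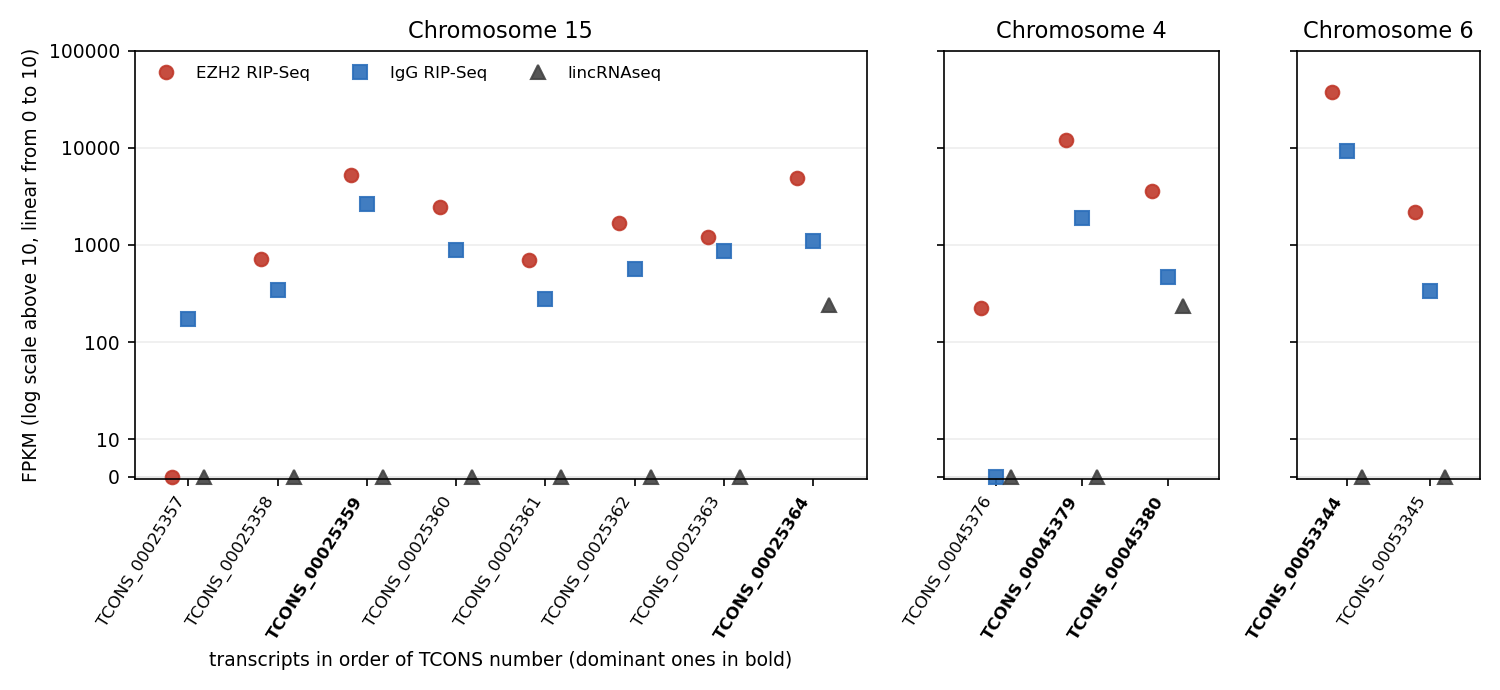
FPKM in the 3 libraries, 1 library each, for every transcript of the files within 10 numbers of a dominant transcript (in bold) on chromosomes 15, 4 and 6, in order of number (vertical axis linear from 0 to 10 and logarithmic above). From TCONS_00025358 to TCONS_00025364 both precipitates lie above 100, while lincRNAseq lies at 0 for all shown but TCONS_00025364 and TCONS_00045380.

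In total RNA, dominant transcripts close in number differed in whether they were above 0, which was part of how they were chosen. All 8 neighbours were listed at 0 in lincRNAseq, whereas 14.5% of all 14580 transcripts were. TCONS_00045379 and TCONS_00045380 have consecutive numbers, and in lincRNAseq the former was at 0 and the latter at 234.2 FPKM. In the precipitates, TCONS_00045379 was at 3.32 times the level of TCONS_00045380 for EZH2 and 3.99 times for IgG. The higher of the pair in both precipitates was thus the one listed at 0 in total RNA.

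The chromosome 15 pair is 5 numbers apart and also had the higher of the pair in both precipitates listed at 0 in total RNA. TCONS_00025359 was at 0 in lincRNAseq and TCONS_00025364 at 242.2 FPKM. The former was 1.07 times the latter in the EZH2 precipitate and 2.45 times in the IgG precipitate. The change to a level above 0 came at the last step of the run, from TCONS_00025363 at 0 to TCONS_00025364.

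That the 5 differ in being at 0 or above 0 in lincRNAseq, and are high in both precipitates, was part of how they were chosen, so the counts over the whole library that follow only place them, and nothing is read from them. Of 9228 pairs of transcripts with consecutive numbers on the same chromosome, 11 (0.119%) had a transcript at 0 beside one of at least 100 FPKM in lincRNAseq, and these include the chromosome 4 pair and the last step of the chromosome 15 run. The median difference between consecutive transcripts was 0.11 on the log2(FPKM + 2) scale in lincRNAseq. The 7 transcripts from TCONS_00025357 to TCONS_00025363 were all at 0, and the longest run of zeros in that library had 9 transcripts.

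High levels in both precipitates were grouped by number in few other places. At least 100 FPKM in both precipitates was reached by 33 transcripts, of which 11 were the dominant transcripts or their neighbours. The longest run of consecutive numbers among the 33 was the 7 on chromosome 15, and the others longer than 1 transcript were the pairs on chromosomes 4 and 6 and a pair on the scaffold GL893554.2, TCONS_00070184 and TCONS_00070185. Chromosome 15 held 10 of the 33 transcripts and 5.82% of all 14580. The 10 include the run of 7, which holds 2 transcripts chosen for high levels, so nothing is read from this count. Of the 33, 17 were listed at 0 in lincRNAseq, 9 of them dominant transcripts or neighbours, against 14.5% of all 14580 at 0. Another 8 of the 33 had at least 100 FPKM there, and the share of all transcripts at that level is not given here. Zeros in lincRNAseq were part of how the dominant transcripts were chosen, so nothing is read from these counts.

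Likeness of pattern was measured over the 3 libraries, which are also the values by which the 5 were chosen, so that closeness within the set follows from the choice and is no result. The measure was the Euclidean distance in log2(FPKM + 2) over 3 values, and shared levels near 0 in lincRNAseq enter it. TCONS_00045379 and TCONS_00025359 were nearest to each other, at a distance of 1.29, and TCONS_00045380 and TCONS_00025364 were nearest to each other, at 1.28. TCONS_00053344 was farther from all others, and its nearest was TCONS_00045379 at 2.84. Outside the set, the nearest to TCONS_00045380 was TCONS_00037579 on chromosome 2, at 1.46, with 1397 FPKM in the EZH2 precipitate, 417.3 in IgG and 167.7 in lincRNAseq. The nearest to TCONS_00025359 outside the set was TCONS_00025360, its neighbour by number, at 1.92.

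The low values give a view of relative depth. For the same transcript, length cancels in the ratio of IgG_FPKM to EZH2_FPKM, so that at low levels this ratio takes steps set by whole fragments. Over 775 transcripts above 0 in both precipitates and below 100 FPKM in IgG, 77 had a ratio within 2% of 5.05, and further groups lay within 2% of 0.5 times (57 transcripts) and 2 times (28 transcripts) that value. If the group at 5.05 stands for 1 fragment in each library, 1 IgG fragment added 5.05 times the FPKM that 1 EZH2 fragment did, and the IgG library was the shallower. A transcript with 1 fragment in each library would then be lower with the EZH2 antibody in FPKM. How far this shapes the percentages over the 815 transcripts above 0 in both precipitates was not tested. The FPKM ratio of TCONS_00053344 would then correspond to 20.2 EZH2 fragments for each IgG fragment, and that of TCONS_00025359 to 9.95. This assumes that Cuffdiff used the same effective length in both libraries, which was not tested. The number of fragments behind each value is unknown here, since lengths and read counts were not used, so no counting interval can be given.

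**Figure D5:**
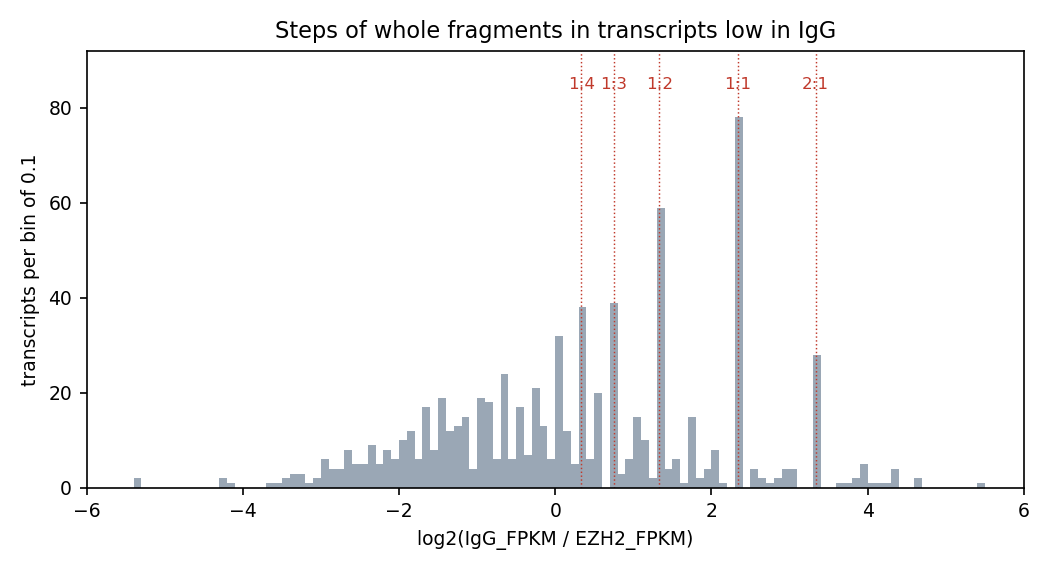
Number of transcripts per bin of 0.1 in log2(IgG_FPKM / EZH2_FPKM), over 775 transcripts above 0 in both precipitates and below 100 FPKM in IgG, 1 library each. Dotted lines are labelled with the ratio of IgG to EZH2 fragments they would stand for, and the highest bar lies at 1:1, a 5.05-fold ratio of FPKM, while 14 transcripts fall outside the range drawn.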

How the data were processed

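Longissimus dorsi muscle gave 3 libraries, namely a precipitate with EZH2 antibody, a precipitate with IgG, and total RNA. Values deposited by the authors are FPKM of assembled transcripts of at least 200 bp, made with Tophat2 on Sus_scrofa 10.2, Cufflinks, Cuffcompare and Cuffdiff (versions not given in the sources used here). FPKM is relative to the library's total and to the estimated length, so an abundant transcript lowers all others. Each file has 26521 rows for 14580 transcripts, of which 11941 are on 2 rows with the same FPKM value, and each transcript was counted once. Values above 0 numbered 6226 for EZH2, 1043 for IgG and 12466 for lincRNAseq.

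Ratios were log2 of FPKM + 2. Folds of FPKM within the set had no pseudocount. Ratios were computed only between values above 0. Neighbours were transcripts within 10 numbers on the same chromosome. The limit for a high level was 100 FPKM and the threshold of the log2 ratio was 1. Named were the 5 dominant transcripts, the next 5 by EZH2_FPKM, neighbours above 100 FPKM in any library, the 2 nearest patterns for each, and TCONS_00036665. TCONS_00070184, TCONS_00070185, TCONS_00072173, TCONS_00025558 and TCONS_00002788 were named after their values were seen. Transcripts and lists were chosen with earlier results of these data known. The code was tested on simulated data. Alternatives were other pseudocounts, thresholds, scalings, windows and row counting. Python 3.11.15, numpy 2.4.6, pandas 2.3.3 and matplotlib 3.10.9 were used.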

Additional observations from a re-analysis of the deposited data

How the results depend on the processing

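Of 54 values of 15 results under alternative settings, 39 kept both their sign and their side of the threshold or, for counts and shares, stayed within 1.5 times. Pseudocounts of 1, 0.1 and 0 (the last chosen after seeing the data) changed no side of the threshold, but at levels this high they add almost nothing and so show no stability. Rescaling to the sum without the 5 transcripts gave EZH2 to IgG log2 ratios of -0.28 for TCONS_00053344, 0.39 for TCONS_00045379, -1.30 for TCONS_00025359, -0.10 for TCONS_00025364 and 0.66 for TCONS_00045380, with 0 past the threshold, a count added after seeing the data. Rescaling to the sum over all transcripts, chosen after seeing the data, gave -0.18, 0.49, -1.20, -0.0066 and 0.75 in the same order, again with 0 past it. Both rescalings multiply IgG by a ratio of sums above 4, which by construction lowers every ratio. Centring on the median ratio brought TCONS_00025359 to 1.09, and the count past the threshold, also added after seeing the data, from 4 to 5. Without TCONS_00053344, a setting also chosen after seeing the data, the share held by the others was 18.6% for EZH2 and 20.8% for IgG. Counting every row raised the shares of all 5 to 38.4% for EZH2 and 42.7% for IgG. For lincRNAseq it raised the share from 0.202% to 0.298%. The difference in total RNA between members close in number was not recomputed with a pseudocount of 0.1, because 1 of each pair is listed at 0 and gets no fold change, and likewise no ratio to lincRNAseq was computed for the 3 transcripts at 0. No paired analysis was possible because each group has 1 library. The IgG library had the fewest transcripts above 0, 1043, and absolute depth is unknown.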

Other observations

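Among the 15 highest transcripts of the IgG precipitate, 13 made up a larger share of the IgG sum than of the EZH2 sum. The others were TCONS_00045379 and TCONS_00045380. Of all 815 transcripts above 0 in both precipitates, 90.1% had a larger share with IgG, and transcripts at 0 with IgG are not among these. TCONS_00025364, counted among the 13, was nearly level, with 2.80% of the IgG sum and 2.79% of the EZH2 sum. The list was chosen by IgG_FPKM, so nothing is read from the count. In FPKM as deposited, only TCONS_00002788 of these 15, on chromosome 1, was higher with IgG, against 55.0% of the 815 transcripts. It had 380.6 FPKM in IgG, 276.6 in EZH2 and 4.34 in lincRNAseq. TCONS_00072173, on the unplaced scaffold GL895129.1, was number 7 in the IgG precipitate with 696.5 FPKM, number 13 in the EZH2 precipitate with 1052 FPKM and number 4 in lincRNAseq with 14667 FPKM. TCONS_00025558, also on chromosome 15, had 1012 FPKM in the EZH2 precipitate, 454.0 in IgG and 1862 in lincRNAseq. These were chosen after their values were seen.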
